A study of Mus musculus with 12 samples.

Results

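The 40 genes described here encode proteins of cell division: mitotic kinases, regulators of entry into and exit from mitosis, the spindle checkpoint, the chromosomal passenger complex, centromere and kinetochore proteins, spindle proteins, cytokinesis proteins, and condensin with topoisomerase II alpha. They were chosen by symbol and not by a measured value, though with earlier results of these data known. All 40 were among the 14852 genes of the expression table. The cells were ID8, a line of mouse ovarian surface epithelium that forms tumours, either untreated (control) or exposed to cisplatin, a platinum drug that crosslinks DNA. The study asked how N4-acetylcytidine (ac4C), a base modification of RNA written by NAT10, takes part in the response to cisplatin. Each group had 3 samples, and RNA of each sample was sequenced before (input) and after precipitation with an ac4C antibody (IP), which made 12 libraries in 4 groups. The dose of cisplatin, the time of exposure and the solvent given to the controls are not stated in the labels. Levels are those of the 6 input libraries, in FPKM (fragments scaled to gene length and to library depth), and ac4C is described from the authors' table of peaks, which has no value per library.

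Dividing cells copy their chromosomes, condense them, attach each sister chromatid through its kinetochore to microtubules of the spindle, and then separate the daughter cells. The checkpoint kinases and Mad2 hold anaphase back until all kinetochores are attached, after which the anaphase promoting complex with Cdc20 marks securin and cyclin B for destruction. Aurora B in the passenger complex corrects faulty attachments and later acts at the midzone, where Prc1, anillin and Ect2 place the contractile ring. Transcripts of many of these genes are low in G1 and peak in G2 and M. Cisplatin adducts stall replication forks and activate the checkpoints that precede mitosis.

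Promoters of genes transcribed in G2 and M often carry a cell cycle homology region, the letters TTTGAA or TTTAAA, and CCAAT boxes, so the members were searched for both. RefSeq promoters of GRCm38.p6, the assembly behind mm10, reach from 250 bases before to 50 bases after the start of transcription and were found for 33 of the 40 genes. Of these 33 genes, 25 (75.8%) held TTTGAA or TTTAAA on either strand, against 30.6% of 27025 genes in the promoter table. CCAAT was found on either strand in 24 (72.7%), against 41.1%, and both motifs stood in the same window in 21 (63.6%), against 12.2%. On the gene strand alone both stood in 11 (33.3%), against 5.46%. In 21 members a TTTGAA or TTTAAA began within 50 bases of the start, a count that was not made over all promoters. In a window from 100 bases before the start, 63.6% of the members held these letters on either strand, against 14.7% of all promoters. The stretches below are those of members with large changes in input RNA, of the kinetochore genes Spc25, Ndc80 and Cenpf, and of Plk1. In input RNA Spc25 rose, and Ndc80 and Cenpf fell. Each match has 12 bases on either side. Each gene is shown with 1 match, picked by hand where it had several, and the stretches read 5′ to 3′ along the gene, with that match in capitals. A further match in lower case lies in the stretches of Anln and Ndc80.
Aurka: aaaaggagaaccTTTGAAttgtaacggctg
Ckap2: gctttgttcgatTTTGAAatttctcgccgg
Birc5: cagcggacatgcTTTAAAgaggtgccccag
Ttk: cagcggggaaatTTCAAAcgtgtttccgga
Anln: tgaaattcaaatTTTGAAcggccgtggtag
Smc2: ctcgcgccgaaaTTCAAAggaacagttccg
Spc25: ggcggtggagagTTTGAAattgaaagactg
Ndc80: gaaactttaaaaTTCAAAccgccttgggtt
Cenpf: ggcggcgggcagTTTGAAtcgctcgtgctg
Plk1: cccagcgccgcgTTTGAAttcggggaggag
In Ttk, Smc2 and Ndc80 the match shown lies on the other strand, where TTCAAA is the reverse complement of TTTGAA. Aurka, Plk1, Cenpf and Smc2 hold further matches that are not shown.

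The match shown began 33 bases after the start in Aurka (chr2:172370521-172370550, minus strand), 31 bases after it in Plk1 (chr7:122159453-122159482, plus strand) and 29 bases after it in Anln (chr9:22389161-22389190, minus strand). In Spc25 it began 25 bases after the start (chr2:69206172-69206201, minus strand) and in Ndc80 30 bases after it (chr17:71526811-71526840, minus strand). Cenpf had it 3 bases after the start (chr1:189688067-189688096, minus strand), Ttk 8 bases after it (chr9:83834684-83834713, plus strand) and Smc2 27 bases after it (chr4:52439235-52439264, plus strand). Ckap2 and Birc5 stood apart, with the match 101 bases (chr8:22185903-22185932, minus strand) and 220 bases (chr11:117849005-117849034, plus strand) before the start. The windows of Bub1, Cdc25b, Mad2l1, Nek2, Nuf2, Nusap1, Pttg1 and Tacc3 did not hold these letters. The letters were present in 15 of 20 members with higher input RNA after cisplatin, in 4 of 6 with lower RNA and in 6 of 7 that were not called. A match is a description of letters in this window.

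The input libraries held 20134902 to 21336306 recovered fragments in control and 21752961 to 29687163 in cisplatin. Pearson's r between libraries was taken on log2(FPKM + 1) of the 11449 genes that reached 1 FPKM in at least 3 libraries. It was 0.995 to 0.996 within control, 0.989 to 0.995 within cisplatin and 0.833 to 0.847 between the groups. FPKM summed over all genes was 258545 to 259158 in control and 275195 to 278678 in cisplatin, so the effect of rescaling is given where it changes a call. Of 11 markers of ovarian surface epithelium and mesothelium, 10 were in the table, with Krt7 near 0 and Lhx9 at 0 in control, and their summed level was 2097 to 2129 FPKM in control and 2957 to 3305 FPKM in cisplatin. Of 8 leukocyte markers the table held Cd68, at 2.22 to 2.57 FPKM in control and 7.5 to 9.72 FPKM in cisplatin, and of 4 endothelial markers it held Tek, at 0.723 to 0.931 and 2.55 to 2.81 FPKM. Of 6 markers of fibroblasts and mesenchyme it held 4, which summed to 410 to 422 FPKM in control and 652 to 701 FPKM in cisplatin. The part of these shifts in the results was not tested.

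After cisplatin the mitosis genes were mostly moderately higher in input RNA, with a minority lower. Of the 40 genes, all passed the filter of 1 FPKM in 3 libraries, 25 rose, 8 fell and 7 did not pass the test (limma on log2(FPKM + 1), adjusted p under 0.05). Over the 11449 genes tested, 81.3% passed, 40.1% as higher and 41.1% as lower, so that passing the test alone does not set the members apart. Their median log2 change was 0.31, against -0.003 over all genes tested, and it was 0.142 under quantile normalization. The changes ran from -0.74 (Nusap1) to 1.73 (Cdc25c). A fold of at least 2 together with the test was reached by 4 members, Cdc25c, Aurka, Ckap2 and Birc5, all higher, against 23.9% of all genes in either direction. The groups did not overlap in 34 members, 26 of them higher in cisplatin, and the same holds for 84.2% of all genes. An exact permutation test of 3 against 3 libraries cannot go below p = 0.1, which those 34 genes reached.

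Added over the 40 genes, control libraries 1, 2 and 3 held 1265, 1259 and 1268 FPKM and cisplatin libraries 1, 2 and 3 held 1482, 1465 and 1525 FPKM. The median member was at 23, 22.3 and 22.4 FPKM in control and at 29.8, 29.5 and 31.6 FPKM in cisplatin. Both measures were higher in every cisplatin library, as was FPKM summed over all genes (275195 to 278678, against 258545 to 259158 in control). With a common FPKM sum the median log2 change was 0.21 for the members and -0.093 for all genes. In bulk RNA a larger share of cells in G2 or M and a higher level of these RNAs within cells cannot be told apart. Control means spanned 1.17 FPKM (Cdc25c) to 117 FPKM (Top2a).

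**Figure D1:**
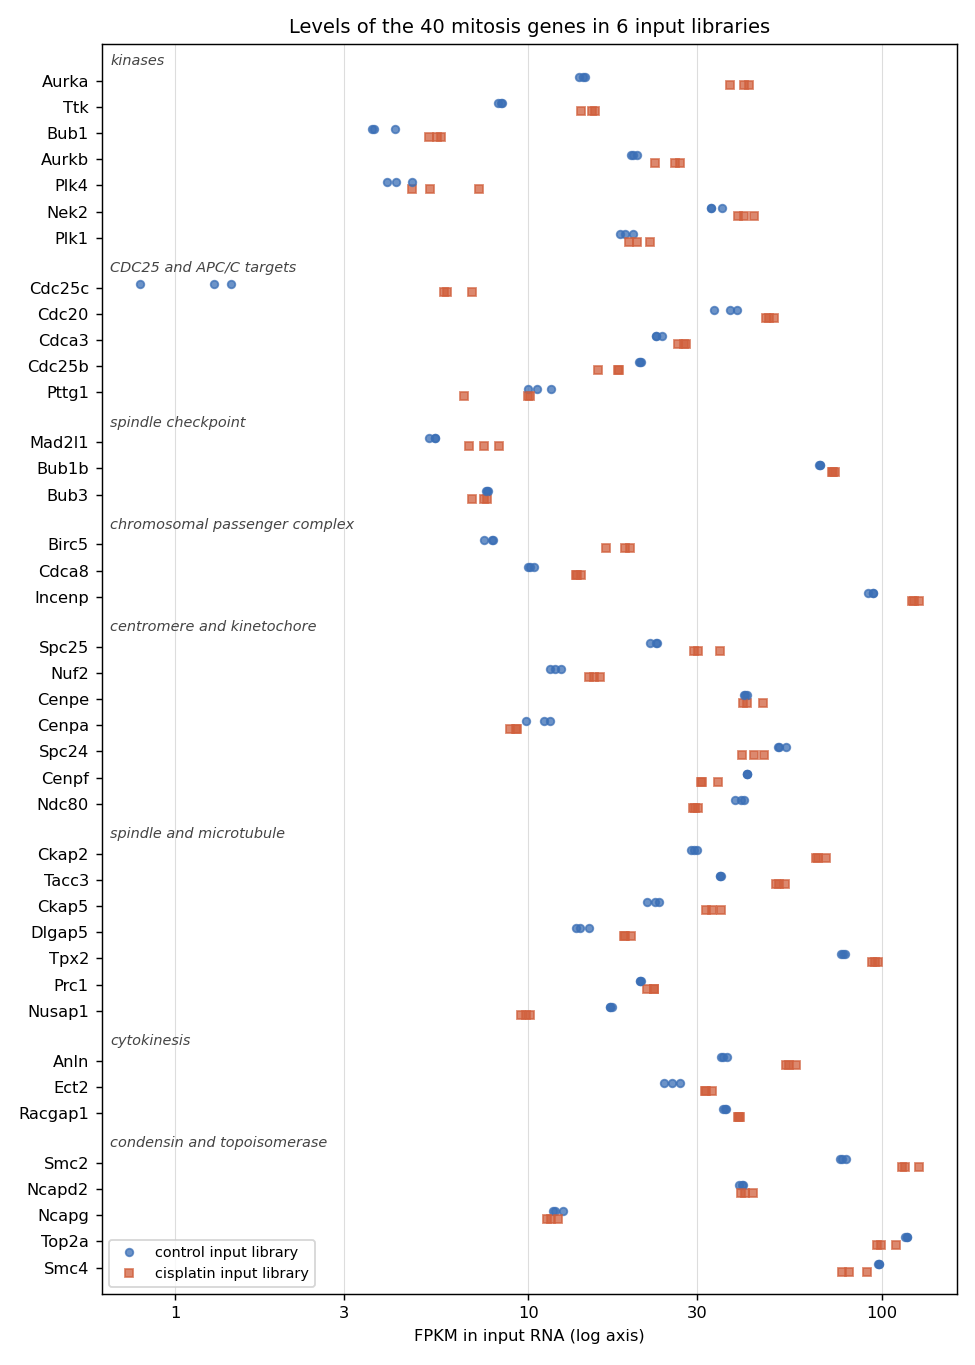
Levels of the 40 genes in FPKM on a log axis, grouped by role, with 1 circle for each control and 1 square for each cisplatin input library. The squares lie to the right of the circles in most rows, with the widest gaps in Cdc25c, Aurka, Ckap2 and Birc5, and to the left in Nusap1, Ndc80, Cenpf and Smc4.

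Among the kinases, 5 of 7 rose, 2 did not pass the test, and the median log2 change was 0.33. For this and every other role, the shares over all genes tested were 40.1% higher and 41.1% lower. Aurka, the kinase that matures centrosomes and builds spindle poles (chr2:172356190-172370886), was at 14.5, 14.3 and 13.9 FPKM in control and at 40.8, 42.1 and 37.2 FPKM after cisplatin. Its groups lay far apart, with means of 14.2 ± 0.318 and 40 ± 2.56 FPKM (SD, n = 3), a 2.81-fold difference. On the log2 scale it rose by 1.43 ± 0.051 (SE), with a limma adjusted p of 4.23e-07. Ttk, the Mps1 kinase that starts checkpoint signalling at unattached kinetochores (chr9:83834651-83872390), was at 8.36, 8.2 and 8.43 FPKM in control and 15.1, 14.1 and 15.4 FPKM in cisplatin. The groups did not overlap, and the log2 change was 0.76 ± 0.046 (SE, adjusted p = 3.6e-06). Bub1, the checkpoint kinase that also marks centromeric histone H2A (chr2:127800197-127831859), was scarcer, at 4.2, 3.6 and 3.65 FPKM in control and 5.51, 5.24 and 5.66 FPKM in cisplatin. Its log2 change was 0.43 ± 0.066 (SE, adjusted p = 0.000605).

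The other kinases moved less. Aurkb, the catalytic subunit of the passenger complex, rose by 0.33 on the log2 scale (adjusted p = 0.00159), and Nek2, which splits the centrosomes, by 0.28 (adjusted p = 0.00121). The call of Nek2 was lost under quantile normalization (0.13, adjusted p = 0.0511). Plk1, needed for mitotic entry, spindle assembly and cytokinesis, had 19.8, 18.1 and 18.7 FPKM in control and 20.3, 22.1 and 19.2 FPKM in cisplatin. Its groups overlapped, and its change of 0.12 ± 0.058 (SE) did not pass the test (adjusted p = 0.0974), although it did without cisplatin replicate 3 (0.16, adjusted p = 0.0321). Plk4, the kinase that starts centriole duplication, was the most variable kinase after cisplatin, at 5.28, 4.69 and 7.26 FPKM against 3.97, 4.22 and 4.69 FPKM in control. Its change of 0.33 ± 0.14 (SE) missed the threshold (adjusted p = 0.0543) and passed it under quantile normalization (0.38, adjusted p = 0.0299), with the replicate block (0.33, adjusted p = 0.0176) and without cisplatin replicate 2 (0.45, adjusted p = 0.0128).

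The group of CDK1 phosphatases and targets of the anaphase promoting complex held the largest rise of all members, and it was mixed in direction, with 3 higher, 1 lower and 1 not called (2 lower with the replicate block or voom). Cdc25c, which removes inhibitory phosphates from CDK1, was at 0.798, 1.44 and 1.29 FPKM in control and at 5.87, 5.77 and 6.92 FPKM in cisplatin. It was the scarcest member in control, with 153 recovered fragments over the 3 control libraries and 915 over the 3 cisplatin libraries, and its means differed 5.27-fold. The log2 change of log2(FPKM + 1), which understates changes of low genes, was 1.73 ± 0.13 (SE, adjusted p = 8.94e-06). Its relative Cdc25b went the other way, at 20.6, 20.7 and 20.8 FPKM in control and 18.0, 17.9 and 15.7 FPKM in cisplatin, with a log2 change of -0.26 ± 0.055 (SE, adjusted p = 0.00334). The CDC25 genes thus moved in opposite directions, and Cdc25b remained the more abundant of them in every library.

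Cdc20, the activator of the anaphase promoting complex (chr4:118432901-118437343), was at 33.6, 38.9 and 37.2 FPKM in control and 47.9, 47.0 and 49.5 FPKM in cisplatin. All cisplatin values were higher, and the log2 change was 0.39 ± 0.055 (SE, adjusted p = 0.000368). Cdca3, an adaptor for the destruction of Wee1, rose by 0.22 (adjusted p = 0.000731). Pttg1 encodes securin, the separase inhibitor, and was at 10.6, 10 and 11.6 FPKM in control and 10, 6.58 and 10.1 FPKM in cisplatin. Cisplatin replicate 2 alone lay low, and the change of -0.27 ± 0.15 (SE) did not pass the test (adjusted p = 0.131). It did pass with voom on recovered fragments (-0.40, adjusted p = 0.0279) and with the replicate block (-0.27, adjusted p = 0.0455).

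Of the spindle checkpoint genes outside the kinases, 2 of 3 rose, with a median log2 change of 0.13 that turned to -0.04 under quantile normalization. Mad2l1 encodes Mad2, which binds and holds Cdc20 (chr6:66535221-66541107), and was at 5.44, 5.23 and 5.45 FPKM in control and 7.49, 6.81 and 8.26 FPKM in cisplatin. The groups did not overlap and the change was 0.42 ± 0.069 (SE, adjusted p = 0.000911). Bub1b encodes BubR1, a part of the mitotic checkpoint complex, and was at 66.7, 66.8 and 66.2 FPKM in control and 72.3, 72.9 and 73.8 FPKM in cisplatin. Its small rise of 0.13 ± 0.027 (SE, adjusted p = 0.00258) ended with quantile normalization (-0.04, adjusted p = 0.17), a common FPKM sum (0.03, adjusted p = 0.29) and voom (0.06, adjusted p = 0.1). Bub3, the partner of Bub1 and BubR1, overlapped between the groups and was not called (-0.05 ± 0.05 SE, adjusted p = 0.377), although it fell after rescaling to a common sum (-0.14, adjusted p = 0.0365).

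All 3 passenger complex genes outside Aurkb rose, with a median log2 change of 0.40. Birc5 encodes survivin, which docks the complex at centromeres (chr11:117849237-117855743), and was at 7.95, 7.91 and 7.48 FPKM in control and 19.4, 18.7 and 16.6 FPKM in cisplatin. With a 2.34-fold difference of means it rose by 1.13 ± 0.063 on the log2 scale (SE, adjusted p = 2.43e-06), more than its partners. Cdca8, the borealin gene (chr4:124918465-124936917), was at 10.1, 10 and 10.4 FPKM in control and 14.1, 13.6 and 13.7 FPKM in cisplatin, a change of 0.40 ± 0.039 (SE, adjusted p = 4.3e-05). Incenp, the scaffold that activates Aurora B (chr19:9872295-9899489), was at 91.3, 94.6 and 94.6 FPKM in control and 127, 123 and 122 FPKM in cisplatin, a change of 0.40 ± 0.031 (SE, adjusted p = 1.21e-05). Survivin and borealin RNA lay well below that of their scaffold in both groups.

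The 7 centromere and kinetochore genes among the 40 ran against the general direction of the members. Of these, 4 were lower and 2 higher, with a median log2 change of -0.22, against 41.1% lower over all genes. Of 29 other centromere and kinetochore genes, 17 were higher and 7 lower, with a median of 0.29. The Ndc80 complex, the main microtubule anchor of the kinetochore, is made of Ndc80, Nuf2, Spc24 and Spc25, and its genes split. Ndc80 (chr17:71496100-71526857) was at 40.7, 38.4 and 39.9 FPKM in control and 29.3, 29.6 and 30.1 FPKM in cisplatin, and fell by 0.41 ± 0.034 on the log2 scale (SE, adjusted p = 1.99e-05). Nuf2, its direct partner (chr1:169497934-169531464), was at 11.9, 11.5 and 12.4 FPKM in control and 14.8, 15.3 and 15.9 FPKM in cisplatin, a change of 0.33 ± 0.045 (SE, adjusted p = 0.00028). The inner end of the complex split in the same manner. Spc25 (chr2:69193895-69206213) rose from 23.1, 22.9 and 22.1 FPKM to 30.2, 29.5 and 34.8 FPKM, a change of 0.45 ± 0.063 (SE, adjusted p = 0.000328). Spc24 (chr9:21755434-21760446) fell from 53.5, 51.3 and 50.9 FPKM to 43.6, 46.3 and 40.2 FPKM, a change of -0.26 ± 0.054 (SE, adjusted p = 0.00295). In each case the subunit with the higher FPKM in control fell and its partner rose. FPKM of different genes depends on the gene length used. Recovered control fragments were closer for Ndc80 and Nuf2 (5863 and 5080) than for Spc24 and Spc25 (8967 and 4856).

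Cenpf, a large kinetochore and microtubule binding protein (chr1:189640606-189688107), was at 41.6, 41.4 and 41.5 FPKM in control and 30.7, 31.0 and 34.3 FPKM in cisplatin. No cisplatin value reached the control range, and the log2 change was -0.37 ± 0.046 (SE, adjusted p = 0.000199). Cenpa, the histone variant that marks centromeres, changed by -0.22 (adjusted p = 0.0128), a call that was lost without control replicate 2 (-0.18, adjusted p = 0.0502). Cenpe, the kinetochore motor, overlapped between groups at 40.9, 41.5 and 40.8 FPKM in control and 41.6, 40.5 and 46.0 FPKM in cisplatin. Its change of 0.05 ± 0.049 (SE, adjusted p = 0.351) had no stable sign across scalings.

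**Figure D2:**
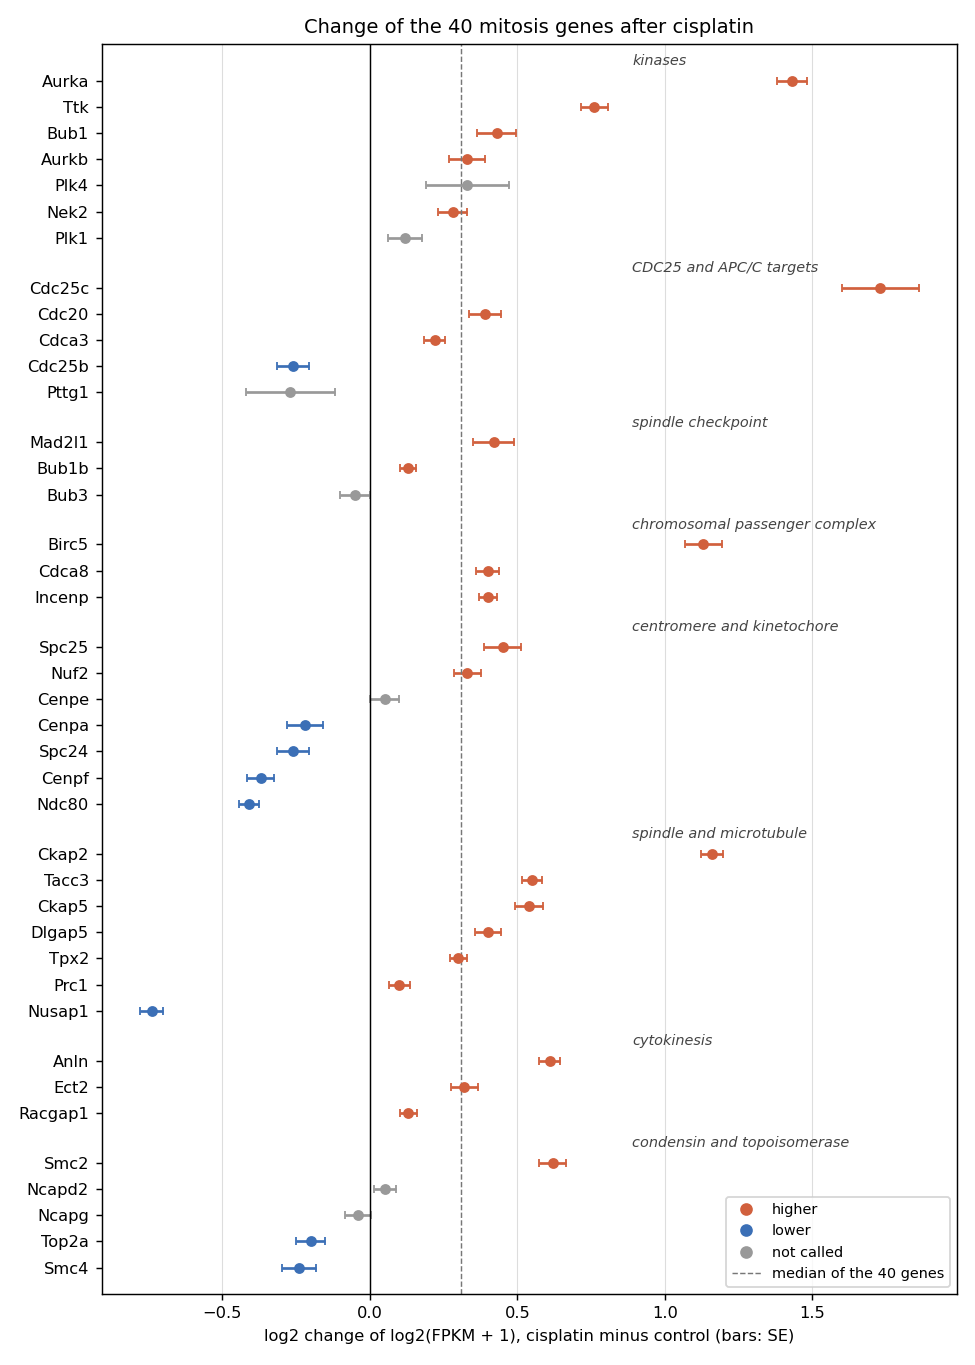
Log2 change of log2(FPKM + 1), cisplatin minus control, for the 40 genes by role, with bars of 1 standard error from limma and colour for the call. Most points lie right of 0, the dashed line marks the median of 0.31, and the genes left of 0 that passed the test include 4 of 7 centromere and kinetochore genes.

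Spindle and microtubule genes rose in 6 of 7 cases, with a median log2 change of 0.40, and also held the member that fell most. With quantile normalization, a common FPKM sum, voom or the replicate block, 5 rose. Ckap2, a microtubule stabilising protein of the spindle (chr8:22168149-22185819), was at 29.4, 28.8 and 30 FPKM in control and 66.0, 65.2 and 69.5 FPKM in cisplatin. Its level was 2.27-fold higher, with a log2 change of 1.16 ± 0.036 (SE, adjusted p = 2.5e-07). Nusap1, which bundles spindle microtubules near chromatin (chr2:119618298-119650165), was at 17.0, 17.0 and 17.2 FPKM in control and 9.52, 10.1 and 9.81 FPKM in cisplatin. It fell by 0.74 ± 0.038 on the log2 scale (SE, adjusted p = 1.76e-06), a 1.74-fold difference of means. Nusap1 overlaps 208 bases of its neighbour Oip5, a centromere gene that also fell, from a mean of 4.68 to 1.37 FPKM.

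Tacc3 and Ckap5 act as a complex on spindle microtubules and moved alike. Tacc3 (chr5:33658128-33672203) was at 34.8, 34.9 and 35 FPKM in control and 50.2, 51.2 and 53.3 FPKM in cisplatin, a change of 0.55 ± 0.033 (SE, adjusted p = 3.58e-06). Ckap5, the microtubule polymerase also called chTOG (chr2:91526747-91620679), was at 23.4, 21.7 and 22.8 FPKM in control and 31.8, 33.0 and 35 FPKM in cisplatin, a change of 0.54 ± 0.047 (SE, adjusted p = 2.54e-05). Dlgap5, the spindle protein HURP (chr14:47387779-47418407), was at 14.8, 14.0 and 13.6 FPKM in control and 19.5, 18.8 and 18.6 FPKM in cisplatin, a change of 0.40 ± 0.044 (SE, adjusted p = 8.84e-05). Groups did not overlap in any of these. Tpx2, the activator of Aurora A on the spindle, changed less than its kinase, by 0.30 (adjusted p = 4.81e-05). Prc1, the midzone bundler, passed the test narrowly (0.10, adjusted p = 0.0283) and lost its call in 9 of 13 other settings, among them a common FPKM sum (0.01, adjusted p = 0.876).

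The 3 cytokinesis genes rose, with a median log2 change of 0.32. Anln encodes anillin, which links actin, myosin and RhoA at the cleavage furrow (chr9:22331214-22389211), and was at 36.5, 35.5 and 35.1 FPKM in control and 54.7, 53.5 and 57.2 FPKM in cisplatin. The groups lay well apart, with a log2 change of 0.61 ± 0.036 (SE, adjusted p = 3.35e-06). Ect2, the exchange factor that activates RhoA there, changed by 0.32 (adjusted p = 0.000382). Racgap1, a centralspindlin subunit that recruits Ect2, changed by 0.13 (adjusted p = 0.00408). That call ended under quantile normalization (-0.03, adjusted p = 0.419), a common sum (0.03, adjusted p = 0.362) and voom (0.06, adjusted p = 0.122).

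Condensin and topoisomerase genes did not move together, with 1 higher, 2 lower and 2 not called. Smc2, an ATPase subunit of condensin (chr4:52439221-52488365), was at 79.1, 76.9 and 75.9 FPKM in control and 116, 114 and 127 FPKM in cisplatin, and rose by 0.62 ± 0.046 (SE, adjusted p = 1.11e-05). Smc4, the ATPase that pairs with Smc2 (chr3:69004738-69034623), was at 97.2, 98.2 and 97.9 FPKM in control and 80.9, 77 and 90.7 FPKM in cisplatin, a change of -0.24 ± 0.058 (SE, adjusted p = 0.00617). The order of these partners was reversed between the groups in every library. Top2a, which untangles sister DNA, was the most abundant member, at 118, 116 and 118 FPKM in control and 99.7, 97 and 110 FPKM in cisplatin, a change of -0.20 ± 0.049 (SE, adjusted p = 0.00635). Ncapd2 and Ncapg, non-SMC subunits of condensin I, were not called (0.05, adjusted p = 0.255, and -0.04, adjusted p = 0.465). Ncapg fell after rescaling to a common sum (-0.13, adjusted p = 0.0279) and with voom (-0.12, adjusted p = 0.0365), and Ncapd2 fell under quantile normalization (-0.11, adjusted p = 0.0245).

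Ratios of FPKM between partners within a library do not depend on the scaling of the library. The pairs were chosen after their values were seen, and the exact permutation p of 0.1 is the smallest that 3 against 3 libraries allow. Smc2 over Smc4 was 0.814, 0.783 and 0.776 in control and 1.44, 1.48 and 1.4 in cisplatin, so that the ratio passed from below to above 1. Nuf2 over Ndc80 was 0.293, 0.3 and 0.31 in control and 0.504, 0.518 and 0.527 in cisplatin. Spc25 over Spc24 was 0.431, 0.446 and 0.434 in control and 0.694, 0.637 and 0.865 in cisplatin. Both ratios of the Ndc80 complex were higher in every cisplatin library (exact permutation p = 0.1 each). Aurka over its activator Tpx2 was 0.187, 0.187 and 0.177 in control and 0.417, 0.439 and 0.396 in cisplatin (exact permutation p = 0.1). By contrast, Ckap5 over Tacc3 was 0.671, 0.621 and 0.65 in control and 0.634, 0.645 and 0.657 in cisplatin, which overlap (exact permutation p = 0.9). Cdca8 over Incenp had close means, 0.109 ± 0.00257 in control and 0.111 ± 0.000383 in cisplatin (SD, n = 3), but its groups did not overlap (exact permutation p = 0.1).

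**Figure D3:**
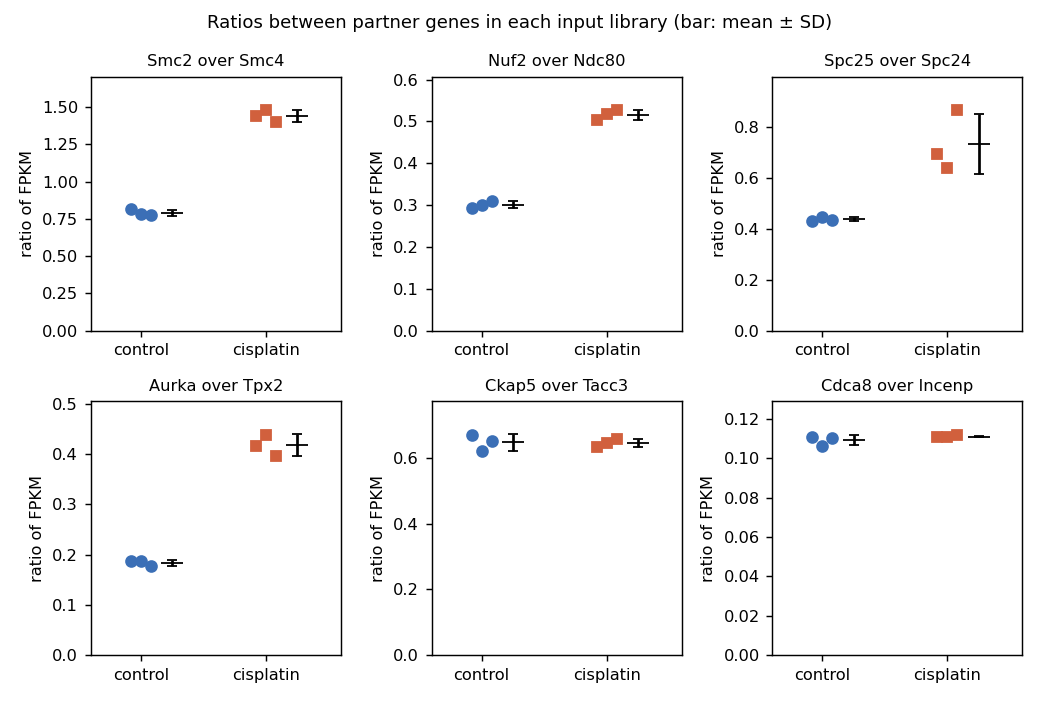
Ratio of FPKM between partner genes in each input library, with circles for control, squares for cisplatin and the mean ± SD beside them, each axis starting at 0. The cisplatin values lie above the control values for Smc2 over Smc4, Nuf2 over Ndc80, Spc25 over Spc24 and Aurka over Tpx2, and overlap them for Ckap5 over Tacc3.

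Gene length and neighbours were examined as shared features. Spearman's rho between genomic span and log2 change was 0.05 over the 40 members and -0.25 over 10560 genes with a span. Members that rose had a median span of 21.8 kb, members that fell 30.3 kb and members not called 16.9 kb, against 21.8 kb over all genes with a span. These correlations are across genes measured in the same libraries. Chromosome 2 holds 8 of the 40 genes, against 7.94% of tested protein-coding genes. Among members that overlap another gene of the table, Aurka shares 242 bases with Cstf1, which was at a mean of 6.21 FPKM in control and 5.81 FPKM in cisplatin, and Cdc20 shares 53 bases with Elovl1, at 6.49 and 4.09 FPKM. Prc1 shares 21669 bases with Rccd1, at 0.593 and 0.824 FPKM. The strand setting of the counting is not stated in the labels, so fragments from overlapping stretches could be split between such genes.

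A wider list, fixed with the 40 genes, held 121 other mitosis genes of the table. Of the 120 tested, 60 rose, 40 fell and 20 were not called, against 40.1% higher and 41.1% lower over all genes, and the median log2 change was 0.15, in a range of -2.15 to 1.64. That median was 0.096 with quantile normalization, 0.086 with voom and 0.052 with a common FPKM sum, where 54 rose and 47 fell. On the scale of log2(FPKM + 1), which understates low genes, the largest rises were those of Ska2, Ccnf, Spdl1 and Mybl2, while Cenpw, a scarcer gene, had a ratio of means of 3.04, above that of Ccnf (2.65). Ska2, a subunit of the Ska complex that stabilises kinetochore attachments, was at 4.37, 4.46 and 4.31 FPKM in control and 15.6, 15.7 and 16.1 FPKM in cisplatin, a change of 1.64 (adjusted p = 1.16e-07). Ccnf, cyclin F, changed by 1.28 (adjusted p = 6.72e-07), Spdl1, the dynein adaptor spindly, by 1.13 (adjusted p = 4.71e-07), and Mybl2, the B-Myb factor of G2 and M genes, by 1.12 (adjusted p = 6.17e-07). These were of the size seen in Aurka, Ckap2 and Birc5.

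On the same scale the largest falls were those of Stag1, Cenpp, Fbxo5 and Oip5, while by ratio of means Lin52 (4.3-fold) and Cenpo (3.88-fold) fell more than Oip5 (3.43-fold) and Fbxo5 (3.17-fold). Stag1, a cohesin subunit, was at 13.7, 13.1 and 13.5 FPKM in control and 2.19, 2.11 and 2.48 FPKM in cisplatin, a change of -2.15 (adjusted p = 1.54e-07) over a gene of 361 kb. Cenpp, an inner kinetochore gene of 189 kb, was at 2.12, 2.42 and 2.14 FPKM in control and 0.112, 0.0511 and 0 FPKM in cisplatin, a change of -1.61 (adjusted p = 7.93e-07), with 11 recovered fragments over the cisplatin libraries. Fbxo5, the Emi1 inhibitor of the anaphase promoting complex, changed by -1.30 (adjusted p = 1.72e-05) and Oip5, a factor that loads Cenpa, by -1.26 (adjusted p = 1.54e-06). Fbxo5 and Oip5 are short genes, of 6.31 and 8.97 kb. None of the 40 members fell by as much as these 4 genes on that scale.

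The other genes were subdivided after their values were seen, and differences between the groups were not tested. Over all genes 40.1% were higher and 41.1% lower. All 8 subunits of augmin, which branches spindle microtubules, rose, with a median log2 change of 0.69. Other centromere and kinetochore genes were higher in 17, lower in 7 and not called in 5 of 29, with a median of 0.29, while the centromere and kinetochore genes among the 40 had a median of -0.22. Cohesin genes were higher in 5 and lower in 7 of 14, and genes of the anaphase promoting complex with its E2 enzymes and regulators were higher in 6 and lower in 9 of 18. Of 17 tested genes of mitotic entry, 10 were higher and 5 lower. Within that group the cyclin B partners of CDK1, Ccnb1 and Ccnb2, went opposite ways, a contrast noticed in the values. Ccnb1 was at 20.4, 18.8 and 20.5 FPKM in control and 26, 24.7 and 26.1 FPKM in cisplatin (0.35, adjusted p = 0.000236). Ccnb2 was at 69.7, 69.5 and 70.1 FPKM in control and 55.9, 52.7 and 52.9 FPKM in cisplatin (-0.37, adjusted p = 2.96e-05). Ccna2, cyclin A2, rose like Ccnb1 (0.53, adjusted p = 4.48e-05). Cdk1 itself, the kinase that drives mitosis, changed by -0.32 (adjusted p = 0.000113), and Foxm1, a transcription factor of G2 and M genes, by 0.28 (adjusted p = 0.00023).

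**Figure D4:**
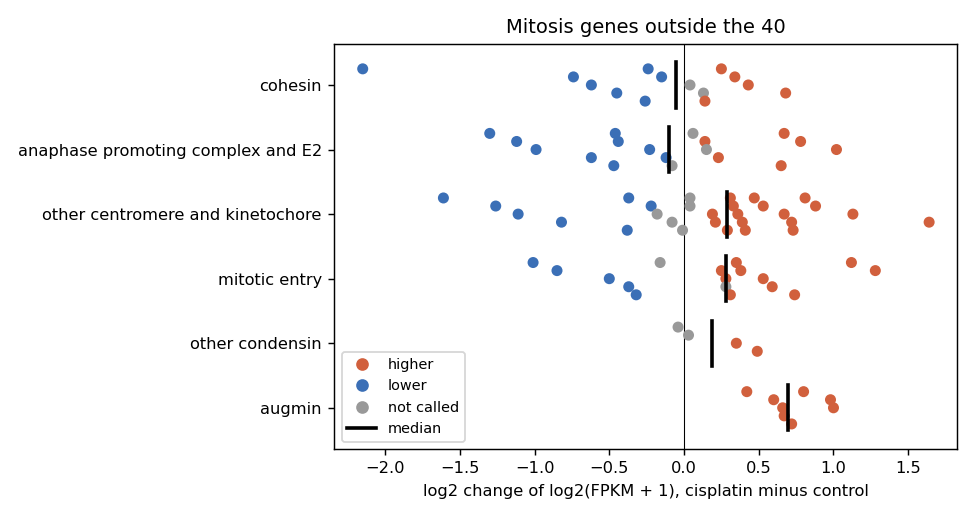
Log2 change of log2(FPKM + 1), cisplatin minus control, of mitosis genes outside the 40 in 6 groups, with 1 point for each gene, colour for the call and a bar at the median. All 8 augmin points lie right of 0, while cohesin and the anaphase promoting complex spread to both sides, down to -2.15 for Stag1.

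The table of ac4C peaks held 101 peaks in 37 of the 40 genes, and none for Cdca8, Nuf2 and Spc25. For each peak the authors list a fold enrichment (IP against input) and a log2 difference between the treatments. The file headers do not state the direction of that difference, so signs are given as in the table. Called means an adjusted p under 0.05 in the authors' deposited table. Of the member peaks, 70 (69.3%) were called, 58 with a positive and 12 with a negative sign. Over all 19049 peaks, 46.2% were called, 36.5% as positive and 9.62% as negative. At least 1 called peak was found in 30 of the 37 genes (81.1%), against 56.1% of all genes with a peak. Levels were matched only in part, by 2208 protein-coding genes with a peak and a control mean of 11.7 to 39.8 FPKM. This is the middle range of the members, which spanned 1.17 to 117 FPKM. Among those 2208 genes 81.9% had a called peak, close to the members, and 59.9% of peaks were called, below the 69.3% of member peaks. The member share includes peaks of members outside that range, and the part of level in it was not tested. Positive signs made up 82.9% of called member peaks and 79.2% of all called peaks, so the prevailing sign was shared with the whole table.

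Member peaks lay mostly in coding sequence. By the authors' annotation, 74.3% of them were in coding sequence, 14.9% in 3′ UTRs, 8.91% in other exons and 1.98% in 5′ UTRs, against 50.5%, 29.5%, 17.6% and 2.28% of all peaks. In protein-coding genes of 11.7 to 39.8 FPKM in control, the middle range of the members, 57.2% of peaks were in coding sequence. The median fold enrichment of member peaks in the authors' deposited table was 3.38, below the 7.05 of all peaks and the 5.71 in genes of that range. Their median exonic width was 210 bases, against 181 bases over all peaks, and 61.4% joined more than 1 exon block, against 44%. There were 2.73 peaks for each member with a peak, against 2.17 for all genes and 2.7 for genes of that range.

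**Figure D5:**
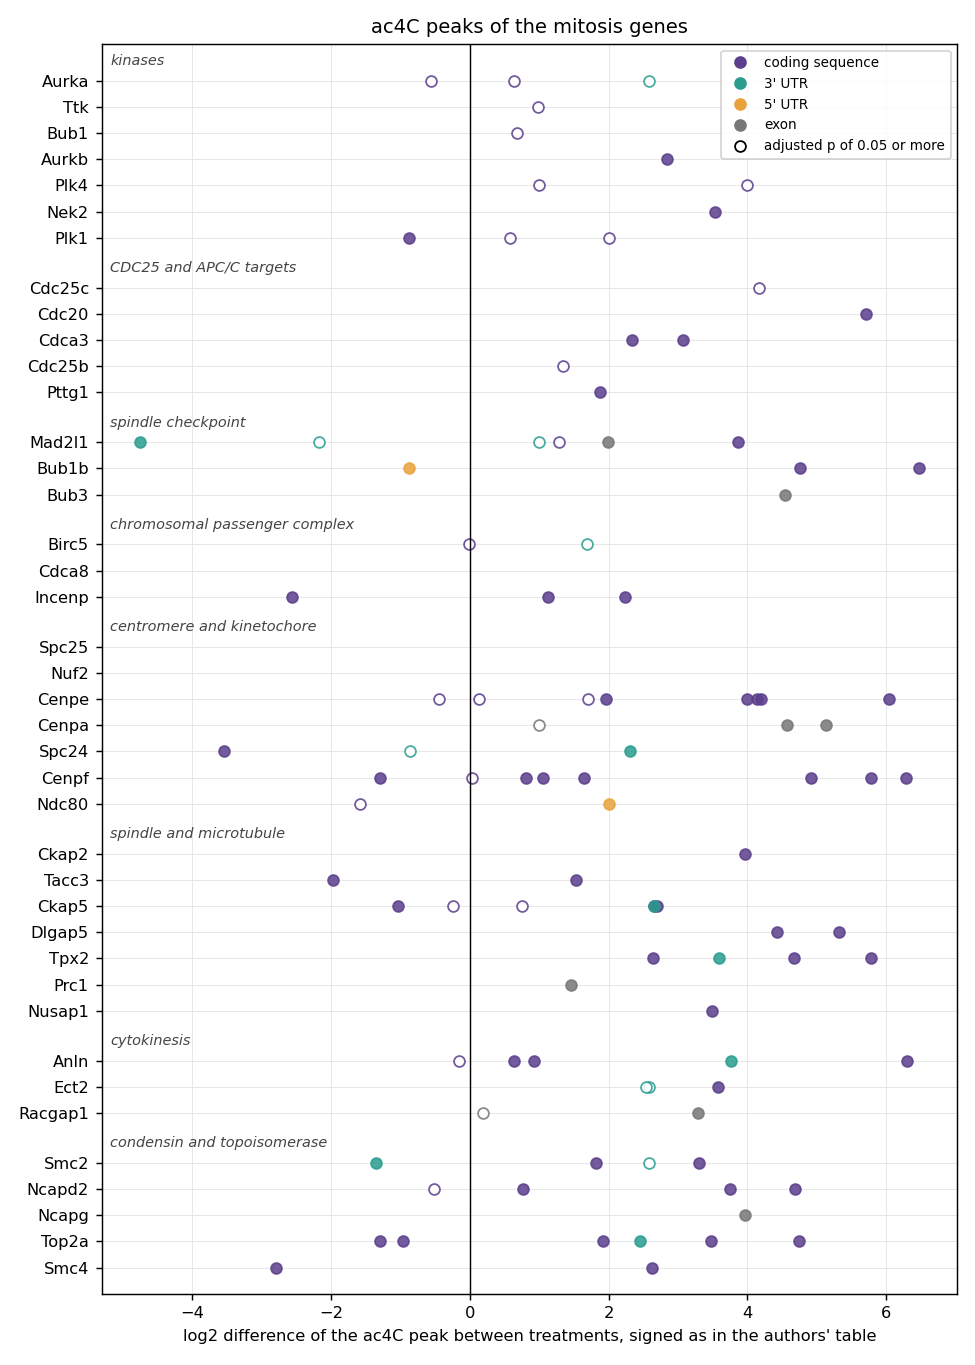
Log2 difference of each ac4C peak between the treatments, signed as in the authors' deposited table, by gene and role, with colour for the part of the gene and open circles for an adjusted p of 0.05 or more. Filled points at positive values prevail, the kinases have 3 filled points among 12 peaks, and Cdca8, Nuf2 and Spc25 have none.

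The roles differed in how many of their peaks were called, as counts with no test. Of all peaks 46.2% were called, and 59.9% of those in protein-coding genes of 11.7 to 39.8 FPKM in control. The roles also differed in level. Median control levels were 7.63 FPKM for the checkpoint, 10.2 FPKM for the passenger complex and 14.2 FPKM for kinases. They were 20.7 FPKM for CDK1 phosphatases and targets of the anaphase promoting complex and 22.6 FPKM for spindle and microtubule genes. Cytokinesis genes had 35.7 FPKM, centromere and kinetochore genes 39.7 FPKM and condensin and topoisomerase genes 77.3 FPKM. The part of level in these counts was not tested. Kinases had the lowest share, 3 of 12, while spindle and microtubule genes had 15 of 17 and condensin and topoisomerase genes also 15 of 17. Centromere and kinetochore genes had 17 of 24, the checkpoint 7 of 10, cytokinesis 6 of 10, CDK1 phosphatases and targets of the anaphase promoting complex 4 of 6, and the passenger complex 3 of 5. Of the 4 members with at least a 2-fold rise in input RNA, Ckap2 alone had a called peak. Aurka had 3 peaks and none called, one of them with the highest fold enrichment of any member peak in the authors' deposited table, 59.9, in coding sequence at chr2:172363643-172364474. Neither Cdc25c (1 peak), Birc5 (2) nor Ttk (1) had a called peak. Ckap2 had 1 peak at chr8:22168636-22168874 in coding sequence, called with a log2 difference of 3.97. Nusap1, the member whose RNA fell most, also had 1 called peak, of the same positive sign (3.49, chr2:119643855-119648917, coding sequence).

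In 10 members called peaks of both signs stood in the same gene, so a single value for the gene would hide them. These were 10 of the 30 members with a called peak, against 800 of all 4928 genes with a called peak. Top2a had 6 peaks, all called. Those in coding sequence at chr11:98994285-98995723 and chr11:99010922-99014463 were negative (-1.29 and -0.96 in the authors' deposited table), and those at chr11:99002921-99003507 (1.92), chr11:99009699-99010131 (4.75) and chr11:99022398-99024129 (3.48) were positive. The sixth, in its 3′ UTR at chr11:98993093-98993302, was positive at 2.45. Smc4 had 1 called peak of each sign in coding sequence, 2.63 at chr3:69016096-69016507 and -2.79 at chr3:69032794-69032944 in the authors' deposited table. Its partner Smc2 had called peaks of 1.82 and 3.31 in coding sequence and of -1.36 in its 3′ UTR. Plk1 was the one member with negative called peaks alone, with -0.877 at chr7:122159558-122161539 and 2 further peaks that were not called. Over all genes, 1569 had a negative called peak, and 800 of these also had a positive one.

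The members with most peaks were Cenpe and Cenpf with 8 each and Ckap5, Mad2l1 and Top2a with 6 each. All 8 peaks of Cenpe lay in coding sequence, and 5 were called, all positive, with log2 differences in the authors' deposited table of 4.14, 4.2, 3.99, 1.96 and 6.04 from chr3:135242331 to chr3:135261715. The other 3 were at 0.126, -0.444 and 1.71. Cenpf also had all its peaks in coding sequence. Its 6 positive called peaks were at 1.05, 4.92, 6.29, 5.78, 1.65 and 0.816, its negative one at -1.29 lay nearest the 3′ end (chr1:189646822-189646972), and the peak nearest the 5′ end, at 0.0365, was not called. Cenpf and Cenpe thus carried large positive differences along their coding sequence, although Cenpf fell in input RNA and Cenpe was not called there.

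Ckap5 had 5 peaks in coding sequence and 1 in its 3′ UTR. In the authors' deposited table its called peaks were at 2.7, 2.66 and, in the 3′ UTR, 2.65, with 1 negative at -1.04, while peaks at -0.237 and 0.749 were not called. Mad2l1 had its called peaks at 1.99 in an exon, at 3.86 in coding sequence and at -4.75 in what the authors annotate as its 3′ UTR (chr6:66542157-66542306). That last peak lies outside the RefSeq span of Mad2l1, as does a peak of 1.0 that was not called (chr6:66542996-66543175). Its other peaks, at 1.29 and -2.17, were not called. The negative call of Mad2l1 thus came from a peak beyond its RefSeq span, in a stretch that the authors' annotation counts to the gene.

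In each role the called peak with the largest difference in the authors' deposited table was in coding sequence. It was 3.54 in Nek2 (chr1:191825802-191827386), 5.71 in Cdc20 (chr4:118434837-118435847), 6.47 in Bub1b (chr2:118641202-118641382) and -2.57 in Incenp (chr19:9893516-9893665). For the remaining roles it was 6.29 in Cenpf (chr1:189653590-189653710), 5.78 in Tpx2 (chr2:152884201-152884411), 6.3 in Anln (chr9:22360433-22360936) and 4.75 in Top2a. Incenp was the one role leader with a negative sign. Tpx2 had all 4 of its peaks called and positive, at 4.67, 5.78, 2.64 and, in a 3′ UTR peak with a fold enrichment of 37.6, 3.59. Ndc80 had 1 called peak, of 2.0, in its 5′ UTR (chr17:71525651-71526827), and 1 in coding sequence that was not called. Without values per library for the IP fraction, these differences have no replicate spread here.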

How the data were processed

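Input RNA of 3 control and 3 cisplatin ID8 samples was analysed. The deposited table gives FPKM made by the authors (fastp, FastQC, HISAT2, HOMER and mm10 are named in the submitters' processing notes, without roles), with the authors' log2 fold changes and p-values per gene. The authors' peak table gives a ratio of IP over input (fold enrichment) and log2 differences, and its log10 p columns were kept as deposited scores because the lowest, -434, recurs in 37 peaks. Genes reaching 1 FPKM in at least 3 libraries were fitted with limma 3.58.1 (R 4.3.3; lmFit, eBayes with trend) on log2(FPKM + 1), adjusted by Benjamini-Hochberg over all genes, at 0.05. Every adjusted p of input RNA comes from that limma fit unless a sentence names voom. Fragments were recovered from the steps of FPKM values, whole for 14851 of 14852 genes within 0.0001, so depth is known for the input, and counting error is the only error such totals show. Counts, exact tests, motif searches and figures used Python 3.11.15 (pandas 2.3.3, numpy 2.4.6, scipy 1.17.1, matplotlib 3.10.9). The limma fit was tested on simulated fragments.

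The members and lists were chosen with earlier results of these data known. All members are named, the 20 with the largest change and the largest of each role by library; of the other mitosis genes, the 4 higher and the 4 lower with the largest change; of peaks, the largest called in each role and all in the 5 members with most. Values beyond these, for members per library, for CDK1 and its partners and for peaks of genes that moved, were chosen after they were seen. Nothing says that replicates came from separate cultures, so p-values measure the spread between these samples. Chi-square per gene was 2.32 to 14.2 between replicates, so none repeats another. Replicate numbers did not pair samples. Alternatives were other pseudocounts, filters, scalings, voom, a replicate block, leaving out each library, and stricter peak and promoter settings.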

Additional observations from a re-analysis of the deposited data

How the results depend on the processing

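Requiring a fold of at least 2 left 4 members higher and 0 lower. The median log2 change of the members was 0.142 with quantile normalization, 0.214 with a common FPKM sum and 0.245 with voom on recovered fragments, and 0.270 to 0.319 when 1 library was left out. Signs turned for Bub1b (-0.04) and Racgap1 (-0.03) with quantile normalization, for Cenpe with quantile normalization (-0.11), a common sum (-0.05), voom (-0.02) and without cisplatin replicate 3 (-0.0008, in a range up to 0.09 over the libraries left out), and for Ncapd2 with quantile normalization (-0.11), a common sum (-0.05) and voom (-0.02); the cause was not tested. Over 13 settings, 28 members kept direction and side of the threshold in each, and 12 did not in at least 1. With the replicate block 25 members were higher and 9 lower, and the lower calls among CDK1 phosphatases and targets of the anaphase promoting complex went from 1 to 2. The replicate numbers are shared labels only, with correlations of deviations of 0.0975, -0.116 and 0.0428. Over all genes the median log2 change was -0.093 with a common sum and -0.076 with voom. Counts of called member peaks, of members with a called peak and of members with each promoter motif alone stayed within 1.5 times under their alternatives. Members with both motifs in 1 window went from 21 to 11 on the gene strand (12.2% to 5.46% of all promoters) and to 16 from 100 bases before the start (3.5%), where the share of all promoters with TTTGAA or TTTAAA fell from 30.6% to 14.7%. Depth limits the control level of Cdc25c, the scarcest member, most.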
